A study of Homo sapiens with 24 samples.

Results

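Collagen genes were compared between 4 aneuploid human cell lines and the parental lines they came from. The members are all genes named COL, a number, A and a number, without antisense genes, and they made up 36 of the 16742 genes listed for any of the 4 comparisons. The tables held 31 of them for HCT116 5/4, 29 for HCT116* 8/3 c7, 31 for RPE1 5/3 12/3 and 31 for RPE1* 21/3. Of the 44 collagen gene symbols in RefSeq, 8 were not analysed here (COL6A5, COL6A6, COL9A1, COL10A1, COL19A1, COL22A1, COL23A1 and COL26A1). The largest changes were a rise of COL6A2 in RPE1* 21/3 and a fall of COL11A1 in RPE1 5/3 12/3. COL6A2 had the highest log2 fold change of all 13101 genes tested in its line, and COL11A1 the lowest of all 13278.

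HCT116 is a line from a human colon carcinoma, with a modal number of 45 chromosomes, and RPE1 hTERT is a line of human retinal pigment epithelium that was made immortal with telomerase, with a modal number of 46. HCT116 5/4 carries 4 copies of chromosome 5 and was compared with HCT116. HCT116* 8/3 c7 carries 3 copies of chromosome 8 and was compared with HCT116 H2B-GFP. RPE1 5/3 12/3 carries 3 copies each of chromosomes 5 and 12 and was compared with RPE1 hTERT. RPE1* 21/3 carries 3 copies of chromosome 21 and was compared with RPE1 hTERT H2B-GFP. Lines with an asterisk make a histone fused to GFP, and so does the parental line each was compared with. Each of the 8 groups had 3 libraries, 24 in all, and the comparisons shared none. The extra chromosomes were brought in by microcell-mediated transfer, except that chromosome 12 was gained spontaneously, and HCT116 5/4 came from another laboratory. HCT116* 8/3 c7 is a single clone, and each aneuploid karyotype was represented here by 1 line, so the extra chromosome and other differences between a line and its parent cannot be told apart. The sources used here call small RNA libraries of these lines biological replicates and say nothing of the mRNA libraries, so the p-values measure the spread between these libraries, which may be technical.

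Collagens are secreted or membrane proteins in which 3 chains wind into a triple helix. Fibrillar collagens (types I, II, III, V and XI and their relatives) build the tension-bearing fibrils of the matrix, type IV forms the sheet of basement membranes, type VI makes beaded filaments beside cells, type VIII a short-chain network, and fibril-associated collagens decorate fibril surfaces. Multiplexins sit near basement membranes, and transmembrane collagens are anchored in the cell that makes them. Some of these molecules are mixed trimers, so a helix can need the products of several genes. The pigment epithelium of the eye rests on a basement membrane that it helps to lay down, and colon epithelial cells stand on another.

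The tables give, for each gene, a mean normalized count over the 6 libraries of a comparison, and a log2 fold change of the aneuploid over the parental line with its standard error (SE). A gene was tested here when its mean was at least 10, and was called when the adjusted p-value of the authors' DESeq2 fit was under 0.05 and the absolute log2 fold change above 0.6. Rose and fell are used below of called genes. The mean and the fold change together fix a mean for each group, and these implied group means are given as normalized counts per library. The tables have no column per library, and whether the libraries of a pair of groups overlapped was not examined. RNA came from whole cultures, in which fewer cells of a kind and less RNA per cell cannot be told apart. Of the members, 31 were tested in at least 1 line and 15 in all 4.

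In HCT116 5/4, 8 of 21 tested collagen genes were called, 4 higher and 4 lower, where 20.6% of all tested genes were called, 10.8% higher and 9.83% lower. In HCT116* 8/3 c7, 4 of 20 were called, 2 in each direction, where 1.8% of all tested genes were called, 0.945% higher and 0.858% lower. In RPE1 5/3 12/3, 17 of 25 were called, 3 higher and 14 lower, where the shares of all tested genes were 16.6% called, 8.13% higher and 8.47% lower. In RPE1* 21/3, 6 of 27 were called, 5 higher and 1 lower, where the shares were 3.31% called, 1.66% higher and 1.65% lower. The collagen genes called lower thus made up 56.0% of those tested in RPE1 5/3 12/3. A gene that passes the filter through 1 group alone is bound to differ, so these counts describe the tested members and not all that were listed. The median log2 fold change of the tested members was -0.22, -0.03, -0.71 and -0.10 in the order of the lines above, and that of all tested genes lay between -0.00044 and 0.0061. In all, 24 collagen genes were called in at least 1 line. Of these, 17 were called in 1 line, 4 in 2 lines, 2 in 3 lines (COL6A1 and COL17A1) and COL13A1 in all 4. Among the 17, COL5A3 and COL24A1 were tested in 1 line alone and COL4A1, COL8A1, COL8A2 and COL21A1 in 2 lines. The matching shares over all genes were not computed, so the 17 cannot be read as changes particular to a line. The plot of changes by class shows each value. The standard errors in HCT116* 8/3 c7 had a sharp upper limit at 0.18, the form that a prior on the fold changes gives, so its fold changes are drawn towards 0 and a threshold of 0.6 asks for more there than in the other lines.

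**Figure D1:**
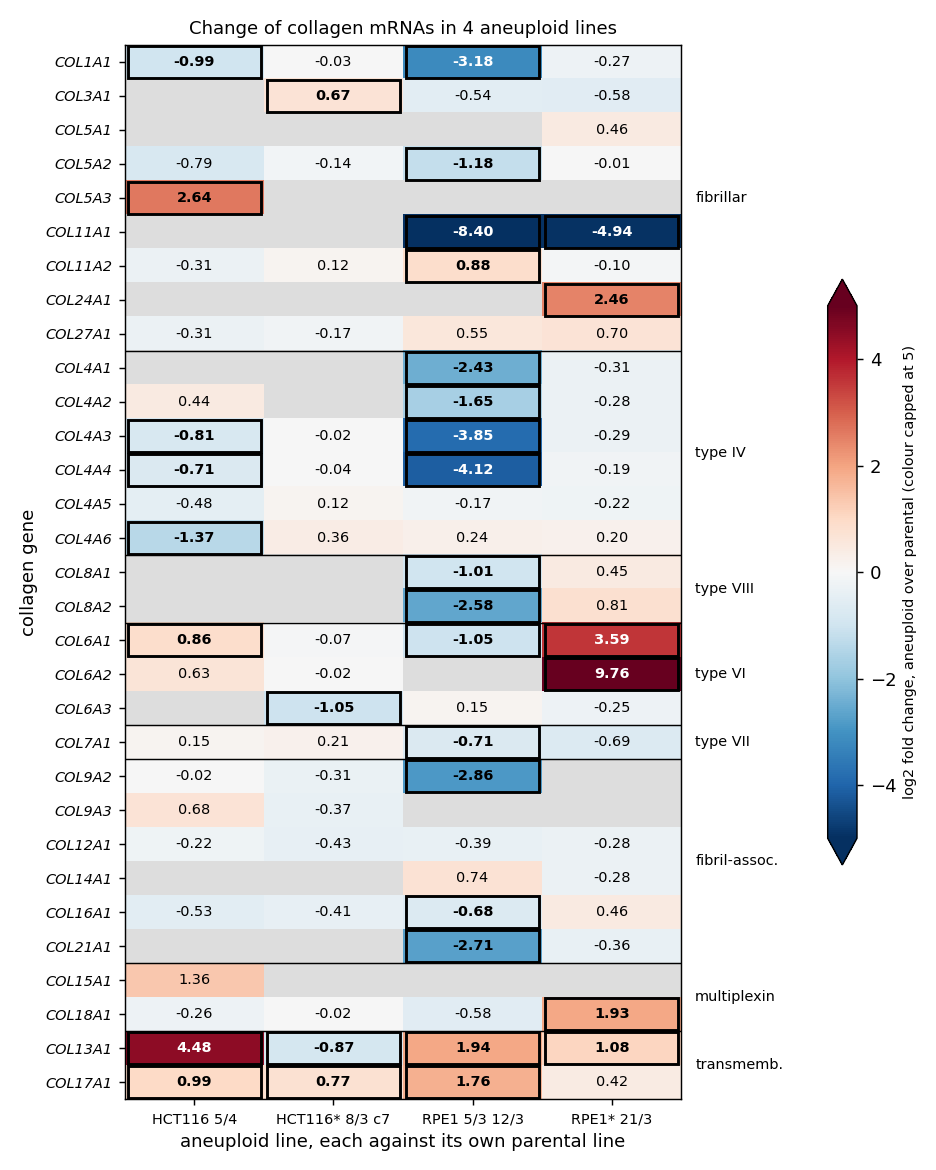
Log2 fold change of each collagen gene (rows, grouped by class) in each aneuploid line against its parental line (columns), with colour from blue (lower) to red (higher), capped at 5. Bold values in black frames were called and grey cells were not tested (mean under 10 or not listed); the frames are densest in the column of RPE1 5/3 12/3, with 17 of 25, and COL13A1 is framed in every column.

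Type VI collagen is built from the products of COL6A1, COL6A2 and COL6A3. COL6A1 and COL6A2 lie 93061 bases apart on the same strand of chromosome 21 (COL6A1 at chr21:47401684-47424964 and COL6A2 at chr21:47518026-47552762, GRCh37), and COL6A3 lies on chromosome 2. In RPE1* 21/3, COL6A2 had an implied mean of 12.9 in the parental line and 11152 in the trisomic line, a log2 fold change of 9.76 (SE 0.34, adjusted p = 2.26e-181). The size rests on the low parental mean, and with the prior undone that mean was 6.08 and the log2 fold change 10.84. COL6A1 went from 910 to 10942, a log2 fold change of 3.59 (SE 0.24, adjusted p = 2.18e-48). COL6A3 did not pass the test, with 377 and 316 and a log2 fold change of -0.25 (95% interval -0.76 to 0.25). Per kilobase of transcript, the parental line thus held COL6A1 at 217, COL6A3 at 35.8 and COL6A2 at 3.74, and the trisomic line held COL6A2 at 3237 and COL6A1 at 2603 beside COL6A3 at 30.0. The ratio of COL6A1 to COL6A2 per kilobase was 58.0 in the parental and 0.804 in the trisomic line, and the first of these would be higher with the prior undone.

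In the other RPE1 pair, whose table was normalized separately, COL6A2 was scarce in both groups together. It had a mean of 3.34 over RPE1 5/3 12/3 and its parental line and was not tested. COL6A1 fell there from 945 to 456, by 1.05 on the log2 scale (SE 0.23, adjusted p = 6.42e-05), and COL6A3 had 352 and 392. In the HCT116 tables the means per kilobase were 1545 and 941 for COL6A1 and 1212 and 931 for COL6A2, against 0.547 and 2.30 for COL6A3. COL6A1 rose in HCT116 5/4 from 4613 to 8376, by a log2 fold change of 0.86 (SE 0.25, adjusted p = 0.00414). COL6A2 had 3282 and 5066 there and missed the test (0.63, SE 0.25, adjusted p = 0.0585), and COL6A3 had a mean of 5.77 and was not tested. The values of COL6A1 in HCT116* 8/3 c7 were 4047 and 3859 and those of COL6A2 3226 and 3191, with log2 fold changes of -0.07 and -0.02. COL6A3 fell in that line from 32.8 to 15.8, by 1.05 on the log2 scale (SE 0.17, adjusted p = 2.52e-07), and with the prior undone the log2 fold change was -1.69. So the chain that changed in HCT116* 8/3 c7 was the scarce one, at 3.11 and 1.50 per kilobase beside 936 and 926 for COL6A2.

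**Figure D2:**
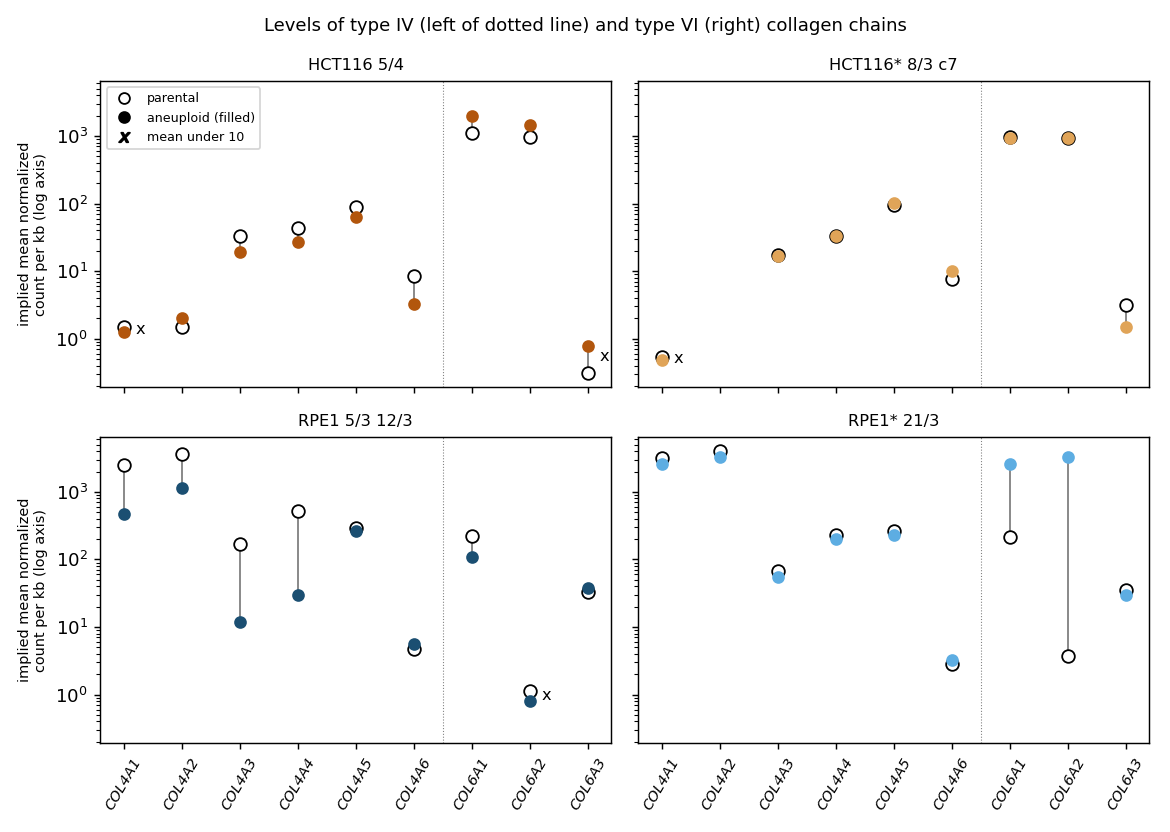
Implied mean normalized count per kilobase of transcript (log axis) of the type IV chains (left of the dotted line) and type VI chains (right) in the parental (open) and aneuploid (filled) group of each comparison; tables were normalized separately, and x marks a mean under 10. COL6A2 spans from 3.74 to 3237 in RPE1* 21/3, and COL4A1 to COL4A4 lie apart from their open points in RPE1 5/3 12/3.

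COL18A1, the third collagen gene of chromosome 21 (chr21:46825080-46933634, GRCh37), encodes a multiplexin of basement membranes whose end fragment is endostatin. It rose in RPE1* 21/3 from 1206 to 4605, by a log2 fold change of 1.93 (SE 0.27, adjusted p = 1.02e-10). In RPE1 5/3 12/3 it had 1115 and 748 and stayed just under the fold change threshold (-0.58, SE 0.22, adjusted p = 0.0482), and in the HCT116 lines its log2 fold changes were -0.26 and -0.02. Exons of the neighbouring SLC19A1 cover 18.5% of the exon bases of COL18A1, and reads from those bases cannot be assigned with certainty. SLC19A1 itself had a log2 fold change of 0.28 (SE 0.40) in RPE1* 21/3, with a mean of 410. The other multiplexin, COL15A1, was tested in HCT116 5/4, where it had 8.48 and 21.7 (1.36, SE 0.55, adjusted p = 0.0627).

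A change from 2 to 3 copies corresponds to a log2 value of 0.58, and the median log2 fold change of the 126 tested genes of chromosome 21 in RPE1* 21/3 was 0.56, with quartiles of 0.37 and 0.83. Against that, COL6A2 ranked first of the 126, COL6A1 sixth (rank 6) and COL18A1 at rank 10. Of the 123 genes of the chromosome that are no collagens, 30 were called, and their log2 fold changes reached from -3.58 to 4.61. Within 1 Mb of the stretch from COL18A1 to COL6A2, 8 of 21 other genes were called, with a median of 0.64. PCBP3, which lies between COL18A1 and COL6A1, had the highest value of these (4.61, SE 0.49). By contrast LSS, whose lowest coordinate lies 90.0 kb beyond the start of COL6A2, had -0.02 (SE 0.25). The plot along chromosome 21 shows high values mixed with genes near the median of the chromosome.

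**Figure D3:**
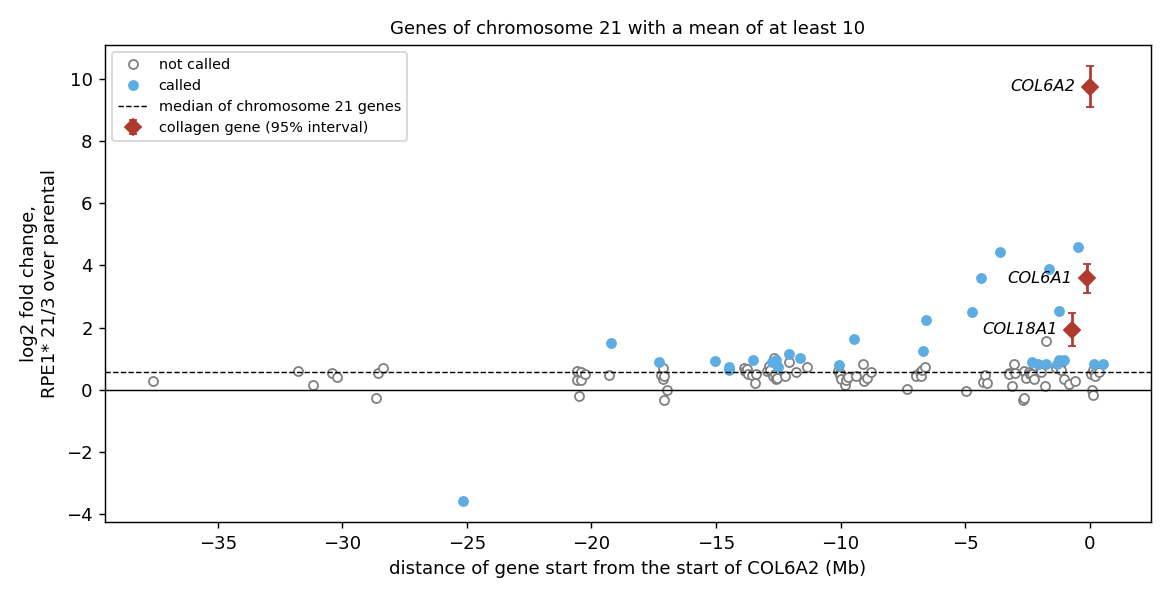
Log2 fold change in RPE1* 21/3 over its parental line of each tested gene of chromosome 21, by the distance of its start (the lowest coordinate, on either strand) from that of COL6A2 in Mb. Called genes are filled, collagen genes are red diamonds with 95% intervals, and the chromosome's median of 0.56 is dashed. COL6A2 stands at 9.76, COL6A1 at 3.59 and COL18A1 at 1.93, and the other genes reach from -3.58 to 4.61 around the dashed line.

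The start-site windows of COL6A2 and COL18A1 are shown because these collagen genes lie on the gained chromosome and rose beyond its median change. Each runs from 250 bases before the start of the transcript to 50 after it, on GRCh38.p14 and on the strand of the gene, with GC boxes (GGGCGG or CCGCCC) and CCAAT boxes (CCAAT or ATTGG) in capitals. COL6A2 (chr21:46097862-46098161) has 4 GC boxes, no CCAAT box, a TATAAA and 36 CpG. The upstream of 2 COL18A1 windows (chr21:45404915-45405214) has 9 GC boxes, no CCAAT box and 46 CpG, more CpG than 97.1% of the 35116 windows of all genes. The other COL18A1 window, not printed, has 1 GC box, a TATAAA and 10 CpG, more CpG than 43.6% of windows. Which start these cells use was not examined, and COL6A1 had no window.
COL6A2: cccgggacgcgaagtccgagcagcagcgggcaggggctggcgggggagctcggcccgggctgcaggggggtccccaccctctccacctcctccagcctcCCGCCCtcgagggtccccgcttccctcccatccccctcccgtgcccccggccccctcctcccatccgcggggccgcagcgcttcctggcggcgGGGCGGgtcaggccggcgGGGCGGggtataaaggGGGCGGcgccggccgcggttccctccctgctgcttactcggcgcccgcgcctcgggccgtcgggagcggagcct
COL18A1: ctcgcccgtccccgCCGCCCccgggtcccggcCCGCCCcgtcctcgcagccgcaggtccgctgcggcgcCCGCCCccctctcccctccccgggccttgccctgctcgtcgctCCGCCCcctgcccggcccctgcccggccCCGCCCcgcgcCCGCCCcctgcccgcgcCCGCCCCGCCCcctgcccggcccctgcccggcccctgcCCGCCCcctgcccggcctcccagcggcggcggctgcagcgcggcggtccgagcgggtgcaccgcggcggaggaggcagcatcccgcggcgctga

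Type IV collagen is assembled from 6 chains that are encoded as 3 pairs of genes facing away from each other across a shared start region, COL4A1 with COL4A2 on chromosome 13, COL4A3 with COL4A4 on chromosome 2 and COL4A5 with COL4A6 on the X chromosome. The first pair makes the common network, and the other chains make networks of specialised basement membranes such as those of the kidney. Of the 6, 4 fell in RPE1 5/3 12/3. COL4A4 went from 5116 to 294, a log2 fold change of -4.12 (SE 0.53, adjusted p = 5.42e-13), and COL4A3 from 1352 to 93.9 (-3.85, SE 0.67, adjusted p = 2.17e-07). With the prior undone their log2 fold changes were -4.76 and -5.07, with aneuploid means of 193 and 41.8. COL4A1 went from 16532 to 3070 (-2.43, SE 0.19, adjusted p = 4.31e-33) and COL4A2 from 23168 to 7358 (-1.65, SE 0.17, adjusted p = 4.29e-20). COL4A5 had 1915 and 1698 (-0.17, SE 0.22) and COL4A6 32.1 and 38.0 (0.24, SE 0.40). The members of the first and the second pair thus fell together, and those of the third pair did not pass the test. Even after the fall COL4A1 and COL4A2 stood at 469 and 1141 per kilobase, above COL4A5 with 260.

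None of the 6 chains was called in RPE1* 21/3 by the DESeq2 fit, and none had an unadjusted p under 0.05, with log2 fold changes from -0.31 to 0.20. COL4A2 and COL4A1 had means over both groups at percentiles 99.5 and 99.2 of all tested genes in that table. In HCT116 5/4, 3 of 5 tested chains fell, among them both members of the second pair again. COL4A3 went from 270 to 154 (-0.81, SE 0.29, adjusted p = 0.0315), COL4A4 from 435 to 266 (-0.71, SE 0.23, adjusted p = 0.0115) and COL4A6 from 56.3 to 21.8 (-1.37, SE 0.43, adjusted p = 0.00887). COL4A5 had 577 and 413 (-0.48, SE 0.29, adjusted p = 0.276). COL4A2, at the foot of the tested range in HCT116 with a mean of 11.5, had 0.44 (SE 0.61), and COL4A1 had a mean of 8.85 and was not tested. The 4 chains tested in HCT116* 8/3 c7 had log2 fold changes between -0.04 and 0.36, none called, and COL4A6 had the highest of these (0.36, SE 0.18, adjusted p = 0.598). The makeup of type IV chains differed between the parental cell types. COL4A1 and COL4A2 led in RPE1, at 2528 and 3594 per kilobase, whereas COL4A5 led in HCT116, at 88.4.

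The windows around the starts of 2 of these pairs are shown because the genes that share them moved together. On GRCh38.p14 the starts of COL4A1 and COL4A2 are 127 bases apart, and their windows share 226 bases. The starts of COL4A3 and COL4A4 are 419 bases apart, and their windows share 82 bases. The nearest starts of COL4A5 and COL4A6 are 380 bases apart, and those windows share 121 bases, though COL4A5 was called in no line. GC boxes and CCAAT boxes are in capitals as above. The window of COL4A1 (chr13:110307108-110307407, minus strand) has 2 GC boxes and 1 CCAAT box, that of COL4A3 (chr2:227164374-227164673, plus strand) 2 GC boxes and that of COL4A4 (chr2:227164156-227164455, minus strand) neither motif. Of all 35116 windows, 45.0% hold a GC box, 34.6% a CCAAT box and 11.5% a TATA box (TATAAA or TTTATA), and of the 44 windows of 32 collagen genes 54.5%, 31.8% and 18.2% do. Such a match is a description of the letters and says nothing of binding.
COL4A1: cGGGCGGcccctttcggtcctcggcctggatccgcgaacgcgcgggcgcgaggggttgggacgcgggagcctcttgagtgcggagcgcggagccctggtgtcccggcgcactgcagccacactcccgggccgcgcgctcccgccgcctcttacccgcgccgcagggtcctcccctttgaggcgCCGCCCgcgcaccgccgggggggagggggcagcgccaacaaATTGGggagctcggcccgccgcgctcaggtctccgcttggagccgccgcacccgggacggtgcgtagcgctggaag
COL4A3: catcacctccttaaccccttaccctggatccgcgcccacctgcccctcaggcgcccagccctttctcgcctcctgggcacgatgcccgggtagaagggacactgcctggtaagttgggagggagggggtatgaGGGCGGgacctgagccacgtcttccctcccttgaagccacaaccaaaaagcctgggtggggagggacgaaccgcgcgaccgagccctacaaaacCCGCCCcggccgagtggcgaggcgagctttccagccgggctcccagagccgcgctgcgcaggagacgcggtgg
COL4A4: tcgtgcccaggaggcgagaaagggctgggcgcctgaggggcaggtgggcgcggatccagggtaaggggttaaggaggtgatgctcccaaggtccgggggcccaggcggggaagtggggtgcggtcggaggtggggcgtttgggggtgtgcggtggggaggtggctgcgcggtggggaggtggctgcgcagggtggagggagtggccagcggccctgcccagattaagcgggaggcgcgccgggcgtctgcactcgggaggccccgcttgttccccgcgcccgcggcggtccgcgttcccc

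Type VIII collagen forms an open lattice in the membrane beneath the endothelium of the cornea and in vessel walls. Both of its genes fell in RPE1 5/3 12/3. COL8A1 went from 13728 to 6838 (-1.01, SE 0.17, adjusted p = 1.61e-07) and COL8A2 from 521 to 86.9 (-2.58, SE 0.34, adjusted p = 9.66e-13). Neither passed the test in RPE1* 21/3, with 12257 and 16786 for COL8A1 (0.45, SE 0.32) and 208 and 364 for COL8A2 (0.81, SE 0.37, adjusted p = 0.365). Neither was tested in an HCT116 line.

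Among the fibrillar collagens COL11A1, the first chain of the minor fibrillar type XI, showed the lowest value. Its implied mean in RPE1 5/3 12/3 was 1431 in the parental line and 4.23 in the aneuploid line, a log2 fold change of -8.40 (SE 0.47, adjusted p = 3.65e-67). The means in RPE1* 21/3 were 621 and 20.2 (-4.94, SE 0.35, adjusted p = 6.51e-43). COL11A1 fell in both RPE1 lines and was the 1 collagen gene that fell in RPE1* 21/3. In the HCT116 tables it was not listed. COL11A2, which encodes another chain of the same type, rose in RPE1 5/3 12/3 from 46.0 to 84.8 (0.88, SE 0.33, adjusted p = 0.0432) and had -0.10 in RPE1* 21/3, -0.31 in HCT116 5/4 and 0.12 in HCT116* 8/3 c7, none called. The low group mean of COL11A1 in RPE1 5/3 12/3 rests on few reads, and its size depends on the fit of the table: with the prior undone it was 2.19 and the log2 fold change -9.35. In RPE1* 21/3 the log2 fold change was then -5.53.

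The window of COL11A1 is shown because this gene had the largest fall in both RPE1 lines. It lies at chr1:103108473-103108772 on the minus strand (GRCh38.p14) and has 3 GC boxes and 1 CCAAT box, in capitals, and 12 CpG.
COL11A1: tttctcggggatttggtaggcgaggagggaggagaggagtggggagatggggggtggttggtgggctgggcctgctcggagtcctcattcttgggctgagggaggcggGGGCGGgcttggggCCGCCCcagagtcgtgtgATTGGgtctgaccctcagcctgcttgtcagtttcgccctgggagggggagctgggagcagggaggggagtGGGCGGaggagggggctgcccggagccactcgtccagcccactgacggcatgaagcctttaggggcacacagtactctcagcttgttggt

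COL1A1 and COL1A2 encode the chains of type I collagen, the main protein of skin, tendon and bone. COL1A1 fell in RPE1 5/3 12/3 from 6662 to 736 (-3.18, SE 0.28, adjusted p = 3.32e-27). It also fell in HCT116 5/4, from 917 to 463 (-0.99, SE 0.29, adjusted p = 0.00578). In RPE1* 21/3 it had 3798 and 3159 (-0.27, SE 0.28) and in HCT116* 8/3 c7 857 and 840 (-0.03, SE 0.15), neither called. COL1A2 was scarce beside it. It was not tested in any line, with means of 4.39 and 8.78 for RPE1 5/3 12/3 and for RPE1* 21/3, where COL1A1 had means of 3699 and 3479. Per kilobase the means were 0.866 and 1.73 for COL1A2 against 626 and 588 for COL1A1.

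Type V chains start the assembly of type I fibrils. COL5A2 fell in RPE1 5/3 12/3 from 7247 to 3204 (-1.18, SE 0.18, adjusted p = 2.29e-09) and had 6810 and 6777 in RPE1* 21/3 (-0.01, SE 0.21). In HCT116 5/4 it had 81.3 and 46.9 (-0.79, SE 0.36, adjusted p = 0.105) and in HCT116* 8/3 c7 79.8 and 72.6. COL5A3 rose in HCT116 5/4 from 10.4 to 64.7 (2.64, SE 0.43, adjusted p = 2.80e-08), and this was the 1 line in which it was tested. COL5A1 was tested in RPE1* 21/3 with a mean of 10.3 (0.46, SE 0.51). COL3A1, a fibril chain of elastic tissues, rose in HCT116* 8/3 c7 from 9.44 to 15.0 (0.67, SE 0.15, adjusted p = 0.00112), a change between low values. It had -0.54 (SE 0.70) and -0.58 (SE 0.50) in the RPE1 lines. COL24A1 rose in RPE1* 21/3 from 8.38 to 46.2 (2.46, SE 0.46, adjusted p = 8.64e-06; 3.12 with the prior undone) and had means under 10 in the other lines. The remaining fibrillar gene, COL27A1, was tested in each line and called in none, with log2 fold changes from -0.31 to 0.70.

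The fibril-associated genes showed no call in HCT116 5/4, HCT116* 8/3 c7 and RPE1* 21/3. Of 5 tested in RPE1 5/3 12/3, 3 fell. COL9A2, a chain of type IX, went from 27.7 to 3.80 (-2.86, or -3.50 with the prior undone, SE 0.60, adjusted p = 3.29e-05), COL21A1 from 65.6 to 10.0 (-2.71, SE 0.53, adjusted p = 5.03e-06) and COL16A1 from 164 to 103 (-0.68, SE 0.23, adjusted p = 0.0199). COL12A1, the most abundant of the class in both RPE1 tables, had 19904 and 15207 in RPE1 5/3 12/3 (-0.39, SE 0.27, adjusted p = 0.386). In HCT116* 8/3 c7 it passed the p threshold and stayed under that of the fold change, with 3431 and 2551 (-0.43, SE 0.11, adjusted p = 0.00534). COL14A1 had 182 and 304 in RPE1 5/3 12/3 (0.74, SE 0.63). COL7A1, whose product anchors the basement membrane of epithelia, fell in RPE1 5/3 12/3 from 1775 to 1088 (-0.71, SE 0.23, adjusted p = 0.0133) and had nearly the same value in RPE1* 21/3, where it was not called (1301 and 803, -0.69, SE 0.25, adjusted p = 0.128).

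The transmembrane collagens COL13A1 and COL17A1 went against the prevailing direction in RPE1 5/3 12/3. COL13A1 encodes a collagen of cell adhesion sites and COL17A1 one of the hemidesmosomes, by which epithelial cells hold to the basement membrane. COL13A1 rose in HCT116 5/4 from 140 to 3140 (4.48, SE 0.21, adjusted p = 2.65e-97), in RPE1 5/3 12/3 from 643 to 2466 (1.94, SE 0.27, adjusted p = 4.20e-11) and in RPE1* 21/3 from 844 to 1779 (1.08, SE 0.24, adjusted p = 0.000655). It fell in HCT116* 8/3 c7 from 225 to 123 (-0.87, SE 0.17, adjusted p = 2.53e-05). COL17A1 rose in HCT116 5/4 from 95.5 to 190 (0.99, SE 0.28, adjusted p = 0.00323), in HCT116* 8/3 c7 from 125 to 214 (0.77, SE 0.16, adjusted p = 0.000204) and in RPE1 5/3 12/3 from 34.4 to 117 (1.76, SE 0.33, adjusted p = 1.70e-06). It had 35.4 and 47.4 in RPE1* 21/3 (0.42, SE 0.39). COL13A1 and COL6A1 were the 2 collagen genes called in both directions. The plot of the called members shows their intervals by line.

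The window of COL13A1 is shown because the gene was called in all 4 lines. It lies at chr10:69801656-69801955 (GRCh38.p14, plus strand) and has neither a GC box nor a CCAAT box, so no base is in capitals, and it holds 1 TATAAA on either strand and 22 CpG.
COL13A1: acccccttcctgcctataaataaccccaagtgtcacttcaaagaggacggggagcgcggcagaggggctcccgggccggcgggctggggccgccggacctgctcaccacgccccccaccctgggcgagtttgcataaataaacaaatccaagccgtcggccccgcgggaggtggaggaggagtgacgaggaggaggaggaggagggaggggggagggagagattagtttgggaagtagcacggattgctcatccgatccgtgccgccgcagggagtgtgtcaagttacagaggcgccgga

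**Figure D4:**
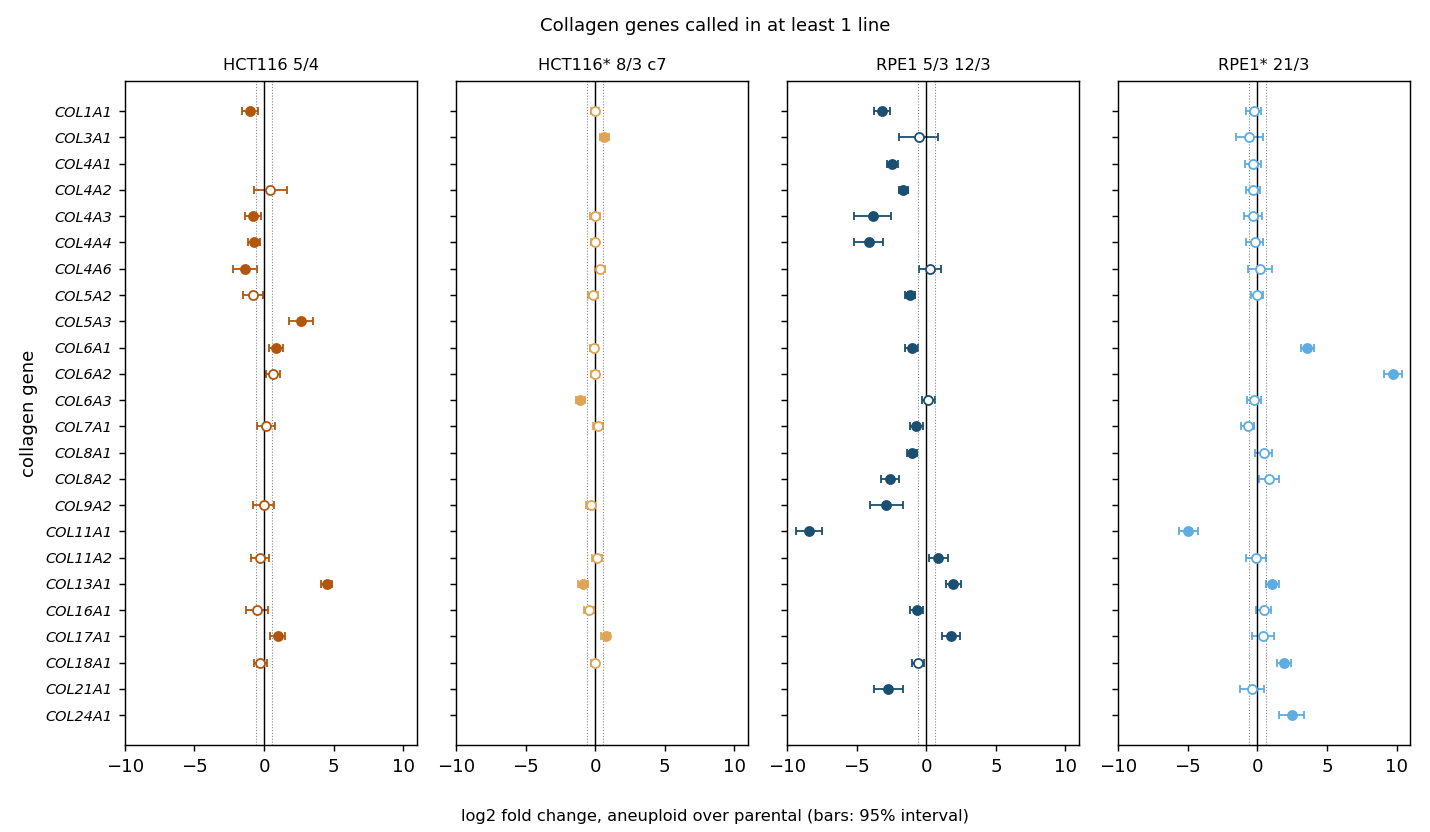
Log2 fold change with 95% interval of the 24 collagen genes called in at least 1 line, 1 panel per aneuploid line, with called values filled, uncalled values open and the fold change threshold of 0.6 dotted. Most points of RPE1 5/3 12/3 lie left of 0, with COL11A1 at -8.40, and COL13A1 lies right of 0 in each panel except that of HCT116* 8/3 c7.

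On the chromosomes gained in the other 3 lines no collagen gene was tested. COL2A1 of chromosome 12 was listed in HCT116* 8/3 c7 alone, with a mean of 2.35, and COL14A1 of chromosome 8 had a mean of 2.30 in that line. The medians of all tested genes were 0.79 for chromosome 5 in HCT116 5/4, 0.22 for chromosome 8 in HCT116* 8/3 c7, and 0.53 and 0.43 for chromosomes 5 and 12 in RPE1 5/3 12/3. So each collagen gene called in those 3 lines lay on a chromosome outside the labelled gain.

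Whether a collagen gene changed to a different extent in a pair of lines was tested from the difference of the log2 fold changes, over all genes tested in both lines. Between the lines RPE1 5/3 12/3 and, of the same cell type, RPE1* 21/3, 13 of 24 collagen genes differed, where 9.32% of 12923 genes did. Each of the 13 had the lower log2 fold change in RPE1 5/3 12/3, from -1.14 for COL16A1 (SE 0.36, adjusted p = 0.0222) to -4.64 for COL6A1 (SE 0.33, adjusted p = 6.69e-42). They held the type IV genes COL4A1 to COL4A4, both type VIII genes and COL1A1, COL5A2, COL11A1, COL18A1 and COL21A1. COL6A1 and COL18A1 lie on chromosome 21, gained in RPE1* 21/3, where they rose by 3.59 and 1.93. In RPE1 5/3 12/3 these 2 genes had -1.05 and -0.58, the second not called. The difference of COL4A5 was 0.05 (95% interval -0.55 to 0.65), that of COL7A1 -0.01 (-0.68 to 0.66) and that of COL12A1 -0.11 (-0.88 to 0.66), so differences up to these bounds cannot be told from none. COL13A1 differed by 0.86 (SE 0.36) and missed the test (adjusted p = 0.132), and COL17A1 by 1.34 (SE 0.51, adjusted p = 0.0802).

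Between HCT116 5/4 and HCT116* 8/3 c7, 5 of 18 collagen genes differed, where 18.9% of 13570 genes did. COL13A1 differed by 5.35 (SE 0.27, adjusted p = 2.41e-84), COL9A3 by 1.05 (SE 0.31, adjusted p = 0.00625), COL6A1 by 0.93 (SE 0.28, adjusted p = 0.00829), COL1A1 by -0.96 (SE 0.33, adjusted p = 0.0243) and COL4A6 by -1.73 (SE 0.46, adjusted p = 0.00187). COL9A3, a chain of type IX, was called in neither line, with 0.68 (SE 0.27) in HCT116 5/4 and -0.37 (SE 0.15) in HCT116* 8/3 c7. It was called in HCT116 5/4 when fold changes were centred on the genes outside chromosome 5. For COL17A1 the difference was 0.21 (95% interval -0.42 to 0.85). Between HCT116 5/4 and RPE1 5/3 12/3, which share a gain of chromosome 5, 8 of 17 collagen genes differed, where 18.5% of 12273 genes did. COL13A1, COL1A1, COL4A2, COL4A3, COL4A4, COL6A1 and COL9A2 were higher in HCT116 5/4 relative to the change in RPE1 5/3 12/3, by 1.91 to 3.41, and COL4A6 was lower, by 1.61 on the log2 scale. COL1A1, COL4A3 and COL4A4 fell in both of these lines, and further in RPE1 5/3 12/3. The strong prior in HCT116* 8/3 c7 enters the differences that involve it. With the prior undone in both lines of each pair, the number of collagen genes that differed was again 5, 13 and 8.

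**Figure D5:**
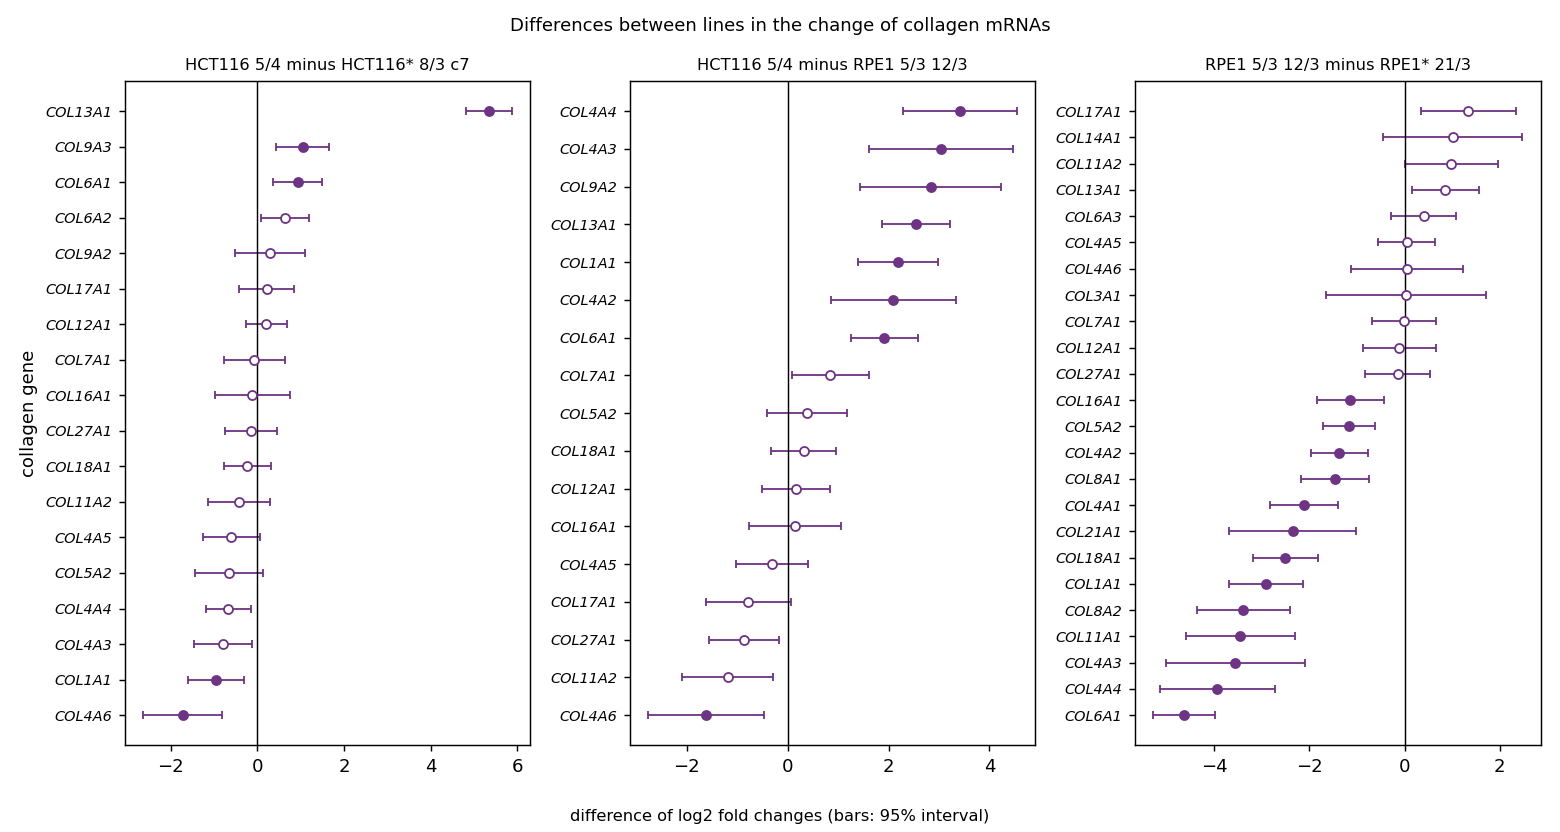
Difference of the log2 fold changes with 95% interval of each collagen gene tested in both lines, for the 3 pairs of lines named above the panels, with called differences filled. In the panel of RPE1 5/3 12/3 minus RPE1* 21/3 each filled point lies left of 0, down to -4.64 for COL6A1, and in that of HCT116 5/4 minus HCT116* 8/3 c7 COL13A1 stands apart at 5.35.

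The genes that make collagen into a matrix protein were taken from a list of enzymes, chaperones and cross-linking proteins. Of the tested ones, 6 of 32 rose and 1 fell in HCT116 5/4, 1 of 32 fell in HCT116* 8/3 c7, 10 of 33 fell in RPE1 5/3 12/3, and none of 30 was called in RPE1* 21/3. Of all tested genes 10.8% were called higher and 9.83% lower in HCT116 5/4, 0.858% lower in HCT116* 8/3 c7 and 8.47% lower in RPE1 5/3 12/3, so the 7 calls of 32 in HCT116 5/4 lie near the 20.6% of all genes called there. Lysyl oxidases cross-link collagens, and 4 of 5 fell in RPE1 5/3 12/3. LOXL4 had the lowest value (-3.45, SE 0.54) and LOXL2 had -1.22 (SE 0.19), whereas LOX had 0.24 (SE 0.17) and was not called. ADAMTS14, which removes the end peptide of procollagen, fell in the same line (-2.72, SE 0.27), as did P4HA3, a subunit of prolyl hydroxylase (-2.02, SE 0.56). In HCT116 5/4 most of the calls were rises. ADAMTS2, which trims procollagen, rose (2.28, SE 0.32), as did ADAMTS14 (1.70, SE 0.30), which had fallen in RPE1 5/3 12/3, the hydroxylases P4HA2 (1.34, SE 0.21) and PLOD2 (0.80, SE 0.30) and the oxidase LOXL2 (1.17, SE 0.23). P4HA3 fell (-3.39, SE 0.68), from a mean of only 10.9. ADAMTS2, P4HA2 and LOX lie on chromosome 5, which this line carries in 4 copies. LOX had 0.89 (SE 0.46) in HCT116 5/4, with a mean of 28.2. The gene called in HCT116* 8/3 c7 was LOXL4 (-0.62, SE 0.15).

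SERPINH1, the chaperone of procollagen in the endoplasmic reticulum, was called in no line, with log2 fold changes of -0.19, 0.07, -0.33 and -0.36 in the order used above. P4HA1 had 0.23, 0.12, -0.38 and -0.59, none called. P4HA2 had 0.27 in HCT116* 8/3 c7, -0.18 in RPE1* 21/3, and -0.51 in RPE1 5/3 12/3, where the adjusted p was 0.0228 and the change too small to be called. PLOD2 had -0.24, -0.105 and -0.51 in the other 3 lines, LOX had 0.06 in HCT116* 8/3 c7 and 0.33 in RPE1* 21/3, and LOXL2 had 0.10 and -0.14 there. Of the collagen receptors, 5 of 7 rose in HCT116 5/4, where 10.8% of all tested genes did, led by the integrin chains ITGA1 (4.27, SE 0.31) and ITGA10 (2.42, SE 0.30). In RPE1 5/3 12/3, ITGA2 (2.61, SE 0.51), ITGA1 (1.25, SE 0.23) and ITGA10 (0.75, SE 0.24) rose, and 1 of the 8 tested receptors fell, where 8.13% of all tested genes were called higher and 8.47% lower. ITGA1 and ITGA2 lie on chromosome 5. In HCT116* 8/3 c7 ITGA10 fell (-0.65, SE 0.18), and in RPE1* 21/3 none of 7 receptors was called.

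Markers of cell type moved with some of these changes. The intestinal epithelial markers EPCAM and CDH1 had means of 4192 and 1685 in the table of HCT116 5/4 and 5683 and 2534 in that of HCT116* 8/3 c7, and of the 7 markers EPCAM alone was listed in an RPE1 table, with a mean of 4.77. In HCT116 5/4, 3 of 4 tested intestinal markers fell, where 9.83% of all tested genes were called lower. The implied sum of these markers was 10454 in the parental and 2056 in the aneuploid line. There, 3 of 4 tested mesenchymal markers rose and TWIST1 fell, with sums of 1026 and 2504, where 10.8% of all tested genes were called higher. Of the 3, PDGFRB lies on chromosome 5, which this line carries in 4 copies, and VIM and FN1 do not. THY1 and CDH2 had means under 10, and DCN, LUM and PDGFRA were not listed. In RPE1 5/3 12/3 the mesenchymal sum was 570288 and 572504, with DCN fallen (-2.79) and 7 of 8 not called. There, 3 of 6 pigment epithelial markers fell and 1 rose, with sums of 2747 and 1768, where 8.47% of all tested genes were called lower and 8.13% higher. The pigment epithelial sum mainly follows MITF (-1.03, SE 0.21), because RPE65 and BEST1, which also fell, had low means. In RPE1* 21/3 no pigment epithelial marker was called, with sums of 1642 and 1574. The mesenchymal sum there was 622712 and 388870, with DCN fallen (-2.06) and 7 of 8 not called, where 1.65% of all tested genes were called lower. That sum mainly follows FN1, which had a mean of 373337 and was not called (-0.82, SE 0.29, adjusted p = 0.115), whereas DCN had a mean of 54.0. The part of these shifts in the collagen changes was not tested. The pigment epithelial markers MITF and OTX2 had means of 1439 and 715 in RPE1 5/3 12/3. BEST1 had 42.7 there, RLBP1 32.4, PMEL 17.8 and RPE65 10.4. In HCT116 5/4 the means were 67.4 for MITF, 7.50 for BEST1, 97.1 for PMEL and 287 for RPE65. So PMEL and RPE65 did not follow the labelled tissue, between tables that were normalized separately.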

How the data were processed

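mRNA of 24 libraries (8 groups of 3) had been sequenced as single reads. The authors removed adapters with cutadapt, mapped reads to hg19 with TopHat2 2.0.10, counted them per RefSeq gene with featureCounts 1.4.3 and ran DESeq2 on the 3 libraries of an aneuploid line against the 3 of its parent (version and prior not given in the sources used here). The deposited tables, 1 per comparison, hold for each gene a normalized signal (the mean of size-factor scaled counts over 6 libraries), a log2 fold change with its standard error, a Wald score and a p-value with its adjusted form. These columns are the authors' own comparisons, and the results rest on them because the tables carry no column of a single library. Depth per library is unknown from them, so no counting interval is given.

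Members and gene lists were chosen with earlier results of these data known. A gene was tested where its mean was 10 or more, and called at an adjusted p under 0.05 (Benjamini-Hochberg over the table) and an absolute log2 fold change above 0.6. Wald scores and adjusted p-values were recomputed from the deposited columns. Group means were solved from the mean and the fold change for 3 against 3 libraries and carry the prior of the fold change. Changes were compared between lines by their difference over its standard error (two-sided normal test, adjusted over all genes tested in both), with 95% intervals, and the script was tested on simulated data. The gene models were of GRCh37, the start windows of RefSeq on GRCh38.p14. Named were all collagen genes called in a line or placed on a gained chromosome, the chains of types I, IV, V, VI and XI with a mean of at least 10, and, of the making and receptor genes, up to 3 rises and 3 falls per line and SERPINH1, P4HA1, P4HA2, PLOD2, LOX and LOXL2. COL9A3, COL12A1, COL15A1, COL27A1, ADAMTS14 in HCT116 5/4, PCBP3, LSS and SLC19A1 were chosen after their values were seen. Alternatives were other filters, thresholds, adjustment, centring and undoing the prior. Scripts ran in Python 3.11.15 with matplotlib 3.10.9, scipy 1.17.1, pandas 2.3.3 and numpy 2.4.6.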

Additional observations from a re-analysis of the deposited data

Results flagged for a closer look

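Between HCT116 5/4 and HCT116* 8/3 c7, 5 of 18 collagen genes changed to different extents, where 18.9% of 13570 genes did. This was by the test of the difference (log2 fold change of the first line minus that of the second, adjusted p under 0.05). COL13A1 differed by 5.35, having risen in 1 line and fallen in the other. COL9A3 differed by 1.05 and COL6A1 by 0.93, both higher in HCT116 5/4, and COL1A1 by -0.96 and COL4A6 by -1.73. The parental lines of this pair differ by H2B-GFP, and the authors' list of lines gives them different origins. The part of these was not tested.

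Between HCT116 5/4 and RPE1 5/3 12/3, 8 of 17 differed, where 18.5% of 12273 genes did. The type IV genes COL4A2, COL4A3 and COL4A4 did so by 2.10, 3.04 and 3.41, COL13A1 by 2.55, COL1A1 by 2.19, COL6A1 by 1.91 and COL9A2 by 2.84, whereas COL4A6 differed by -1.61. These lines also differ in cell type, and that and their karyotypes cannot be told apart.

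For RPE1 5/3 12/3 minus RPE1* 21/3, 13 of 24 differed, where 9.32% of 12923 genes did. Of the chromosome 21 genes COL6A1 differed by -4.64 and COL18A1 by -2.51. In type IV the differences were -2.12 for COL4A1, -1.37 for COL4A2, -3.56 for COL4A3 and -3.94 for COL4A4. Those of type VIII were -1.46 for COL8A1 and -3.39 for COL8A2. Among fibrillar genes COL11A1 differed by -3.46, COL1A1 by -2.91 and COL5A2 by -1.17, and among fibril-associated ones COL21A1 by -2.35 and COL16A1 by -1.14. The parental lines of this pair differ by H2B-GFP, and the part of that was not tested.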

How the results depend on the processing

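Of 44 counts of collagen genes under the alternatives, 39 stayed within 1.5 times the reported count. None of 164 values of the genes named by the rule changed its call when the prior was undone or the fold changes were centred. Undoing the prior could remove no call, here or in the counts of called genes, because it enlarges fold changes and adjusted p-values were kept. COL9A3, outside that rule, was added in HCT116 5/4 by the centring, for 9 called genes. With an absolute log2 fold change above 1, the called collagen genes went from 8 to 3 in HCT116 5/4 and from 4 to 1 in HCT116* 8/3 c7. With a mean of at least 100 they went from 4 to 2 in HCT116* 8/3 c7 (without COL3A1 and COL6A3), and the differences between HCT116 5/4 and RPE1 5/3 12/3 from 8 to 5. Without the filter on low values the differences between HCT116 5/4 and HCT116* 8/3 c7 went from 5 to 8, with COL5A3, COL6A3 and COL15A1 added. With the prior undone, the fold of 8 called values moved by over 1.5 times, as given beside each. In HCT116* 8/3 c7 undoing it gave -1.69 or, by another solution chosen after seeing the data, -2.81 for COL6A3, and 0.88 or 2.73 for COL3A1. No paired analysis was possible because the tables hold no values of single libraries. For the same reason leaving out replicates, edgeR, other size factors and a replicate block were not run, and whether 1 library decides a value was not tested.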
